A study of Mus musculus with 42 samples.

Results

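The antigen receptor of T cells is a complex of variable chains, which bind antigen, and invariant CD3 chains, which carry the signal. The genes described here are 8, out of 47719 listed for each library: the constant genes of the receptor chains, Trac (alpha), Trbc1 and Trbc2 (beta) and Trdc (delta), and the genes of the invariant chains, Cd3d, Cd3e, Cd3g and Cd247 (the zeta chain). They were chosen by symbol, and all 8 were found by their Ensembl identifiers. Mouse spleen was separated into T cells, B cells and a fraction named non-BT in the labels, and the RNA of each was sequenced. Untreated animals of either genotype were used: wild type, given as Psmb8 +/+, and homozygous for a substitution in the immunoproteasome subunit Psmb8, given as Psmb8 G201V/G201V. Each cell type had libraries from 3 old animals per genotype and 4 young animals per genotype, giving 42 libraries in 12 groups from 14 animal labels. The labels of 3 libraries, those of young wild-type animal 4, read Psmb9 +/+ in place of Psmb8 +/+. The strain, sex, ages in weeks and the method of cell separation were not given in the sources used here, nor whether libraries with the same animal label came from 1 mouse. Values are FPKM, fragments scaled by transcript length and by the mapped fragments of the library, as the authors deposited them.

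As background, each T cell builds either an alpha-beta or a gamma-delta receptor by joining gene segments, and the constant genes are read out as the last part of the joined gene. A beta chain uses either Trbc1 or Trbc2, which encode nearly the same protein. Trdc lies inside the alpha locus and is removed from a chromosome when the alpha segments join. Receptor chains reach the cell surface only together with CD3 gamma, delta and epsilon and the zeta chain, whose tyrosine motifs (ITAMs) recruit the kinase ZAP-70. CD247 also serves as a signalling chain of receptors on natural killer cells.

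The libraries differed in depth from an estimated 9490000 to 25760000 fragments (median 18695000), with the lowest values among the non-BT libraries. The cell types were checked on marker lists. B cell markers summed to between 6032 and 7729 FPKM in the B libraries and to at most 219 FPKM in the T libraries. T libraries also held natural killer and myeloid transcripts: the 12 natural killer markers summed to between 874 and 1504 FPKM there, against 440 to 2842 FPKM in the non-BT libraries, and the 10 macrophage and monocyte markers to between 1200 and 2437 FPKM. No gene of either list was at 0 in all libraries of a T group. In bulk libraries, more cells of a type cannot be told apart from more RNA per cell.

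The beta constant genes differ little in coding sequence, which bears on how their reads were divided. On GRCm38, with GENCODE M21 transcripts, Trbc1 lies on the plus strand at chr6:41538218-41539881 and Trbc2 at chr6:41546730-41548352. Their coding sequences of 518 bases were 95.6% identical and differed at 23 bases. Only 1 of those lies in the first coding exon of 375 bases, and the longest identical run was 259 bases. The other 22 lie in the 143 bases of coding exons 2 to 4, which are shown here, 5′ to 3′, because they hold most of the coding differences. The longest annotated transcripts have 737 bases for Trbc1 and 692 for Trbc2, and their untranslated parts were not compared. Capitals mark the bases that differ.
Trbc1: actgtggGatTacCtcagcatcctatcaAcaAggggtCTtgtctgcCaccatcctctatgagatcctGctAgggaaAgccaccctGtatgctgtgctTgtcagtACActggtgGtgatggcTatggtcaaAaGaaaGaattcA
Trbc2: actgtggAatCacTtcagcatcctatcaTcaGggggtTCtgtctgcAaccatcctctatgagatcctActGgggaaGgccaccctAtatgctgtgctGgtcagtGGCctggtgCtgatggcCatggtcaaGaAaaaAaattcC
The printed exons span chr6:41539114-41539662 for Trbc1 and chr6:41547610-41548178 for Trbc2. How reads from identical stretches were shared between the genes was not given in the sources used here, so the sum of both genes is firmer than the level of either.

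The other members are spread over 3 more chromosomes. Trac lies on the plus strand at chr14:54220521-54224206 and Trdc upstream of it at chr14:54142851-54148868. The last bases of the Trdc transcript overlap Trdv5, a delta variable gene on the opposite strand, whose median was 7.26 FPKM in T cells. The libraries were not stranded, so reads from that overlap cannot be told apart. Cd3g (chr9:44969572-44980431, minus strand) and Cd3d (chr9:44981786-44987339, plus strand) start next to each other and point apart, and Cd3e lies beside them at chr9:44998740-45009627 on the minus strand. Cd247 lies at chr1:165788681-165877277 on the plus strand, and its span overlaps Pou2f1 on the opposite strand (median 4.03 FPKM in T cells and 10.6 FPKM in B cells).

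All 4 genes of the invariant chains have an entry among the RefSeq promoter windows of GRCm38.p6, and the 4 constant genes are named only. The 250 bases before each start are shown, 5′ to 3′ on the strand of the gene, because these 4 genes encode the invariant chains of 1 complex and were all highest in T cells. Capitals mark AGGAA, the core of sites for ETS factors, or its complement TTCCT.
Cd3d, chr9:44981536-44981785: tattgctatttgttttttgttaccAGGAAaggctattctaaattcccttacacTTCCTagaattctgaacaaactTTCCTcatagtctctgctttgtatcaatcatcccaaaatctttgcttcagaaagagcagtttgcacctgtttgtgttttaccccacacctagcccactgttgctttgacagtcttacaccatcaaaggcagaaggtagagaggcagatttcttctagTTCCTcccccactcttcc
Cd3e, chr9:45009612-45009861: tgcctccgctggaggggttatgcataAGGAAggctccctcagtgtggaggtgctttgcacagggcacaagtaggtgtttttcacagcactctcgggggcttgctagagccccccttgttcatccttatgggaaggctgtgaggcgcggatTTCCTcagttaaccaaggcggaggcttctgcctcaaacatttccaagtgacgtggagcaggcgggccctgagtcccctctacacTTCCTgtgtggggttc
Cd3g, chr9:44980432-44980681: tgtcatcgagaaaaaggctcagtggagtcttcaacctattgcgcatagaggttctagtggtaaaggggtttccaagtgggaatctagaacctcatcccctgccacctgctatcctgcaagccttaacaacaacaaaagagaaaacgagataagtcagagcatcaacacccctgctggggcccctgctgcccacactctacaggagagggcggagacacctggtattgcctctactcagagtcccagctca
Cd247, chr1:165788431-165788680: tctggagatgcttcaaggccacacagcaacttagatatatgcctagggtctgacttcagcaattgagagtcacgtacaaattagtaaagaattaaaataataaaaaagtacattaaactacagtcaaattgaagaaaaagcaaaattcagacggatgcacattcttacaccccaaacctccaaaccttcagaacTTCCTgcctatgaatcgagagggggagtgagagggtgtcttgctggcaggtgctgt
AGGAA on either strand occurred 4 times before Cd3d, 3 times before Cd3e, once before Cd247 and not before Cd3g, while 60.3% of 32851 promoter windows of the same length hold at least 1 match. Counted from the RefSeq start, the nearest copies began at -18 in Cd3d, -16 in Cd3e and -56 in Cd247. The GENCODE span of Cd3e runs to 45009627 on the minus strand. The end of the printed Cd3e window, with the copy at -16, lies within that span. The E-box CANNTG, searched on both strands, occurred once each in Cd3d and Cd3e, 3 times in Cd3g and 2 times in Cd247, with matches in 66.2% of all windows. Neither TGTGGT, the core of RUNX sites (14% of windows), nor TATAAA (12.4% of windows) occurred in the 4 windows on either strand. A match describes these letters and is not evidence of a bound site.

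All 8 genes were highest in T cells, lower in non-BT cells and lowest in B cells. By level per transcript length in the 14 T libraries, the beta and alpha constant genes led, with 1710 ± 278 FPKM (SD, n = 14) for Trbc2 and 1516 ± 148 FPKM for Trac. Their ranges, 1342 to 2452 FPKM and 1298 to 1758 FPKM, overlapped. Trbc1 at 756 ± 97.2 FPKM and Cd3g, the gamma chain of CD3, at 727 ± 88.6 FPKM followed, and these neighbours also overlapped. Cd3d, the delta chain, reached 389 ± 35.3 FPKM, and Cd3e, the epsilon chain, 299 ± 32.5 FPKM. Cd247 stood at 234 ± 20.3 FPKM, between 198 and 267 FPKM, so its highest libraries reached the lowest of Cd3e at 261 FPKM. Trdc was far below all of them at 12.4 ± 3.60 FPKM, between 6.10 and 17.7 FPKM. Trac and Trbc1, Cd3g and Cd3d, and Cd247 and Trdc were the neighbours in this order whose ranges did not overlap.

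**Figure D1:**
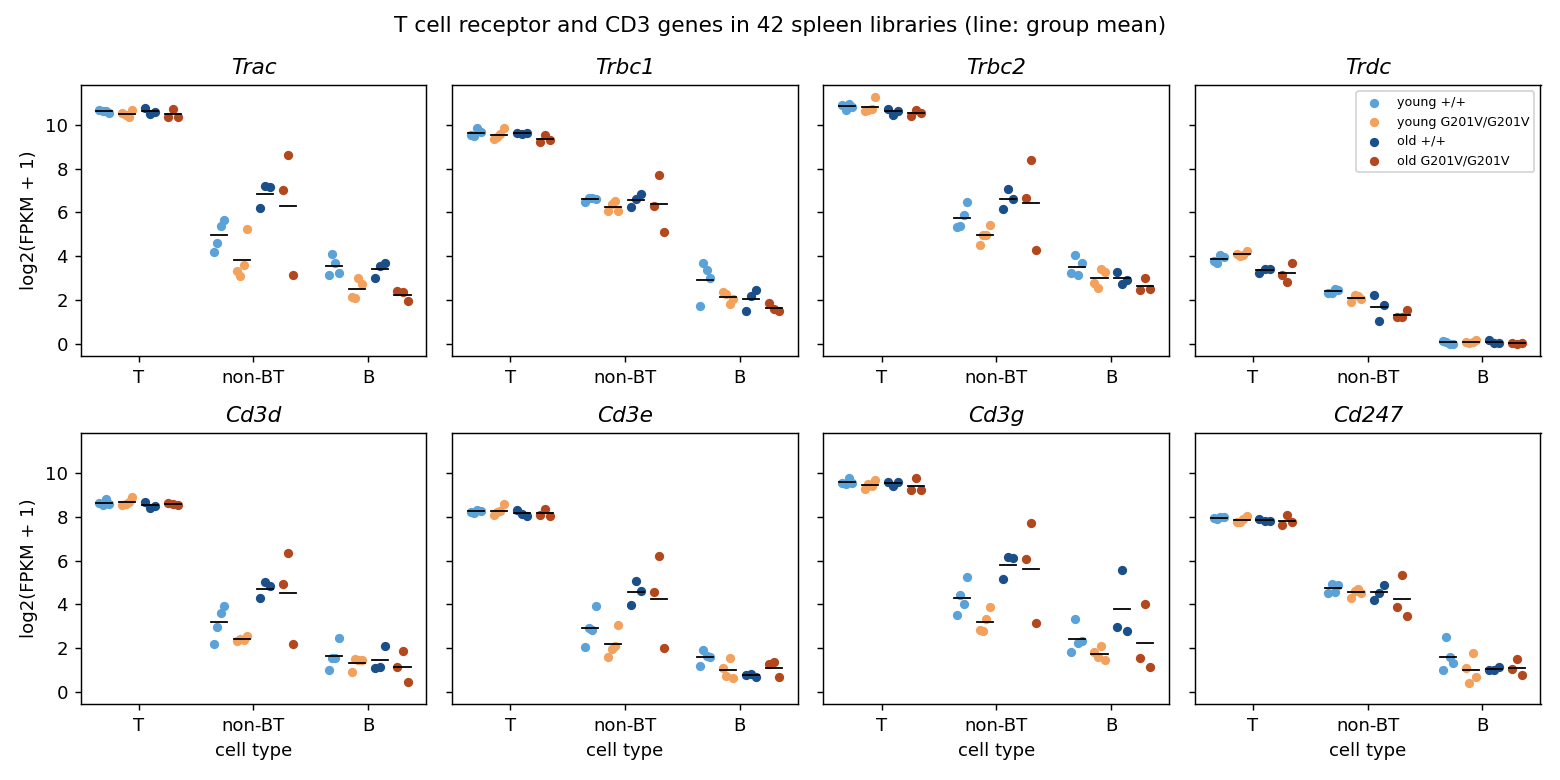
Level of each gene as log2(FPKM + 1) in each of the 42 libraries, by cell type (T, non-BT, B) and by group within it (colours), with a line at the group mean. T libraries sit close together for every gene but Trdc, which ranges from 6.10 to 17.7 FPKM there. The non-BT libraries spread widely for Trac, Trbc2, Cd3d, Cd3e and Cd3g, and Trbc1 and Cd247 are more even in them.

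In limma on log2(FPKM + 1), fitted over all 42 libraries with Benjamini-Hochberg adjustment over 15143 genes and a call at an adjusted p under 0.05, all 8 members were called higher in T than in B cells. Of all genes tested, 53.2% were called in that comparison. On the log2(FPKM + 1) scale the differences ran from 7.66 ± 0.23 (SE) for Trbc2 and 7.63 ± 0.31 for Trac to 6.68 ± 0.15 for Cd247 and 3.57 ± 0.09 for Trdc. The highest adjusted p among the 8 was 1.44e-19, for Cd3g. All 8 were also called higher in T than in non-BT cells, where 63.2% of genes were called. There the differences fell into 2 sets, with 5.08 ± 0.31 for Trac, 4.89 ± 0.25 for Cd3d, 4.76 ± 0.33 for Cd3g, 4.75 ± 0.23 for Trbc2 and 4.74 ± 0.24 for Cd3e, against 3.36 ± 0.15 for Cd247, 3.10 ± 0.17 for Trbc1 and 1.75 ± 0.09 for Trdc. The highest adjusted p of that comparison was 6.25e-15, again for Cd3g. All 8 were called higher in non-BT than in B cells, where 67.5% of genes were called, led by Trbc1 at 4.25 ± 0.17 and Cd247 at 3.32 ± 0.15. The pseudocount of 1 FPKM understates these differences where the B level is low.

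Other genes of the pathway followed the same order in part. Of 25 genes listed for signalling below the receptor, 21 were higher in T than in B cells and 4 were lower, with a median difference of 4.61 on the log2 scale beside 0.04 over all genes. The largest were Lat, the scaffold that ZAP-70 phosphorylates (7.04), Cd6, a surface regulator of T cell activation (7.01), and Prkcq, a protein kinase C (6.26). Among the lower ones were Csk (-1.10), Pag1 (-0.91) and Vav1 (-0.21), which are known to act in B cells too. Against non-BT cells, 19 of the 25 were higher, 2 were lower and 4 were not called (median 2.60, over all genes -0.04). All 4 gamma constant genes were higher in T than in B and in T than in non-BT cells, led by Trgc2 at 5.05 ± 0.16 and 3.47 ± 0.16. Trgc3 was near the floor, with a mean of 1.01 FPKM in young homozygous and 0 in old wild-type T libraries. In young wild-type libraries its means were 0.340 FPKM in T and 0.248 FPKM in non-BT cells. The 3 coreceptor genes were higher in T than in non-BT cells, by 4.68 for Cd8b1, 2.56 for Cd8a and 1.74 for Cd4. Of 8 T lineage regulators, 8 were higher in T than in B cells and 7 in T than in non-BT cells, among them Bcl11b (4.46) and Lef1 (4.36).

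Expressed against the T library with the same animal label, B libraries held each member at a median between 0.280% (Trdc) and 0.531% (Cd247) of the T level. The medians for Trac (0.444%), Trbc1 (0.456%), Trbc2 (0.409%), Cd3d (0.399%), Cd3e (0.418%) and Cd3g (0.450%) lay within a narrow band. B libraries kept nearly the order of T libraries, with medians of 7.38 FPKM for Trbc2, 7.07 for Trac, 3.48 for Cd3g, 3.35 for Trbc1, 1.75 for Cd3d, 1.19 for Cd3e and 1.11 for Cd247. Trdc stood at a median of 0.0373 FPKM in B cells and was listed at 0 in 1 library. That median corresponds to an estimated 2.4 fragments, so Trdc in B cells was at the limit of the depth and was not tested there.

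Non-BT libraries divided the members, mainly in young animals. Over all 14 animal labels, Trac, Trbc2, Cd3d, Cd3e and Cd3g had medians between 2.11% (Cd3e) and 2.68% (Trbc2) of the T level, whereas Cd247 had 9.54%, Trbc1 11.8% and Trdc 23.7%. Trac ranged from 0.539% to 23.1% over the 14 animal labels, and Cd3g from 0.807% to 24.0%. Cd247 stayed between 4.74% and 14.6%. In young animals the means of Trac were 2.13 ± 1.05% (wild type) and 1.07 ± 0.81% (homozygous) and those of Cd247 10.4 ± 1.57% and 9.66 ± 1.36% (SD, n = 4). In old animals Trac was at 7.83 ± 3.29% and 11.2 ± 11.3% and Cd247 at 10.03 ± 2.74% and 8.77 ± 5.19% (SD, n = 3), so the 2 genes overlapped there. By level over all 14 non-BT libraries, Trbc1 had the highest median at 89.0 FPKM, ahead of Trbc2 (49.98), Trac (39.2) and Cd247 (22.4), and Cd3g (17.7), Cd3d (9.01), Cd3e (6.94) and Trdc (3.34) followed. Trbc1 was ahead of Trbc2 by mean in both young groups (96.0 and 56.5 FPKM in the wild type, 76.3 and 31.3 FPKM in homozygotes). In old animals Trac had the highest mean (120 ± 41.6 FPKM for the wild type and 178 ± 198 FPKM for homozygotes, SD, n = 3), followed by Trbc2 (101 ± 31.2 and 151 ± 164 FPKM) and Trbc1 (95.2 ± 19.8 and 106 ± 89.1 FPKM), with ranges that overlapped.

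**Figure D2:**
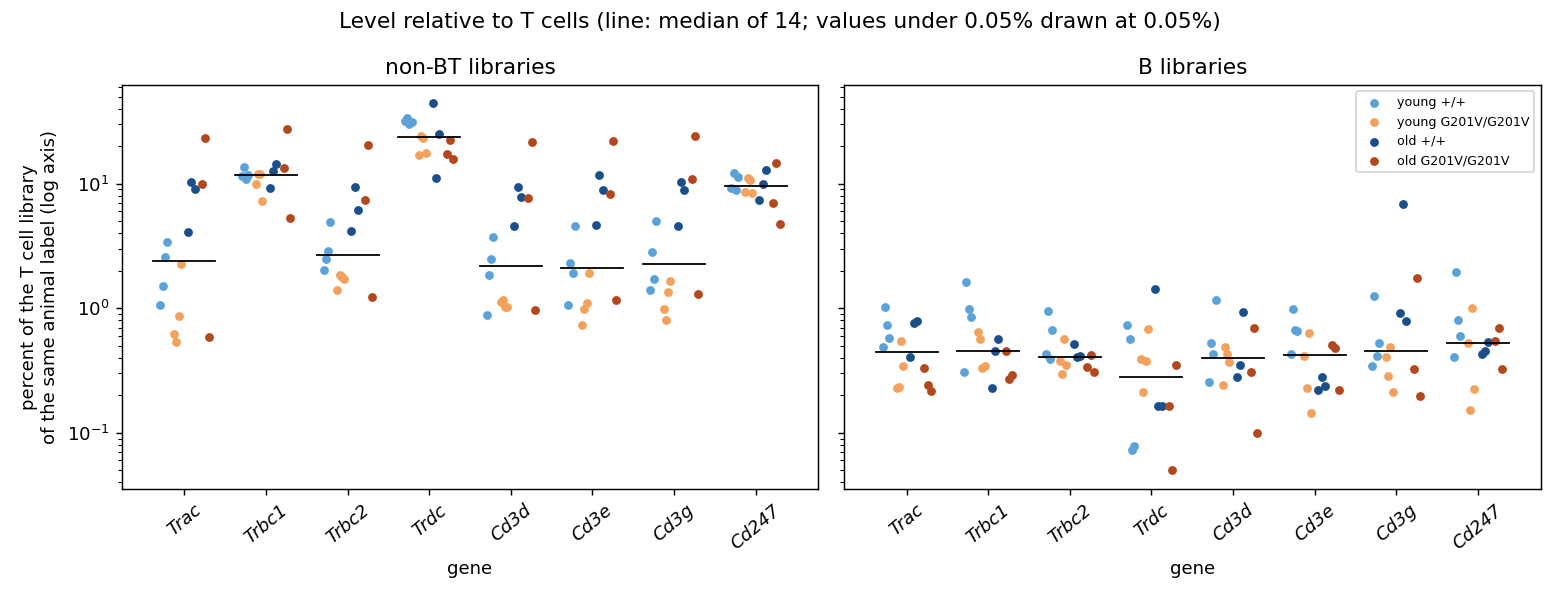
Level of each gene in the non-BT library (left) and the B library (right) as a percent of the T library with the same animal label, on a log axis, with 1 point per animal label, colours for the 4 groups and a line at the median of 14. In non-BT libraries the points of Trbc1, Trdc and Cd247 lie between 4.74% and 44.1%, while those of the other 5 genes spread from 0.539% to 24.0%, and in B libraries all points lie at or below 1.94% apart from Cd3g at 6.83% in the old wild-type animal numbered 2. Trdc, listed at 0 in the B library of the old homozygous animal numbered 2, is drawn at 0.05%.

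The departure of single members from the CD3 chains was tested as the log2 ratio of each gene to the mean of Cd3d, Cd3e and Cd3g, compared within animal label by an exact two-sided permutation test of sign changes, for which 0.000122 is the smallest p that 14 pairs allow. The ratio of Cd247 was 0.69 ± 1.30 (SD, n = 14) in non-BT cells and -0.90 ± 0.07 in T cells, a difference of 1.59 that was positive in 11 of 14 animal labels (exact permutation p = 0.00159, adjusted over 5 genes 0.00264). The 3 animal labels without a higher ratio were all old, the second wild-type and the first and second homozygous ones, and the non-BT ratio averaged -0.48 ± 0.34 in old wild-type and -0.57 ± 1.38 in old homozygous animals (n = 3 each), against 1.25 ± 0.61 and 1.94 ± 0.38 in young ones (n = 4 each). The other ratios were compared after the values had been seen. For Trbc1 the ratio was 1.83 higher in non-BT than in T cells and for Trdc 3.19 higher, each in 14 of 14 animal labels (exact permutation p = 0.000122, adjusted 0.000305 for both). For Trbc2 the difference was 0.08, positive in 7 of 14 (exact permutation p = 0.392). For Trac it was -0.30, with 5 of 14 positive (exact permutation p = 0.0387, adjusted 0.0484), a call that several other settings ended. Of the 12 natural killer markers, 5 were called higher and 3 lower in non-BT than in T cells, and their part in the ratios was not tested.

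In B cells the ratio of Cd247 was 0.43 higher than in T cells, in 12 of 14 animal labels (exact permutation p = 0.00696, adjusted over 4 genes 0.00928), but with a pseudocount of 0.1 FPKM the difference was 0.24 and no longer passed (exact permutation p = 0.183). The ratios of Trac (-0.52) and Trbc2 (-0.55) were lower in B than in T cells, and both calls were lost with that pseudocount, at -0.11 for each. For Trbc1 the difference was -0.21 (exact permutation p = 0.277). At 1 to 7 FPKM these ratios depend on the pseudocount.

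The balance of the beta constant genes also differed by cell type. The share of Trbc1 in the sum of Trbc1 and Trbc2 FPKM was 30.7 ± 2.05% (SD, n = 14) in T cells, and all 14 libraries lay between 27.2% and 35.5%. In non-BT cells it was 59.5 ± 12.6%, between 38% and 74.7%, so no non-BT library reached down into the T range. The difference of 28.8 percentage points had the same sign in 14 of 14 animal labels (exact permutation p = 0.000122, adjusted over 3 comparisons 0.000366). In B cells the share was 33.8 ± 10.9% and did not pass a test against T cells (exact permutation p = 0.295). Within non-BT cells the share was 63.9 ± 8.33% in young wild-type, 71.0 ± 6.55% in young homozygous, 49.0 ± 5.93% in old wild-type and 48.9 ± 14% in old homozygous animals. In young T cells the genotypes had 29.3 ± 1.52% (homozygous) and 30.4 ± 1.66% (wild type), which did not pass (exact permutation p = 0.343, smallest possible 0.0286 with 4 against 4). The sum of both genes, which depends less than either gene on how reads were divided between them, averaged 2648 ± 231 FPKM in young wild-type, 2599 ± 524 in young homozygous, 2361 ± 161 in old wild-type and 2151 ± 234 in old homozygous T cells. In non-BT cells the sums were 152 ± 25.1, 108 ± 14.4, 196 ± 45.1 and 257 ± 254 FPKM in the same order. The share itself rests on how the authors' counting divided reads of near-identical coding sequence.

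**Figure D3:**
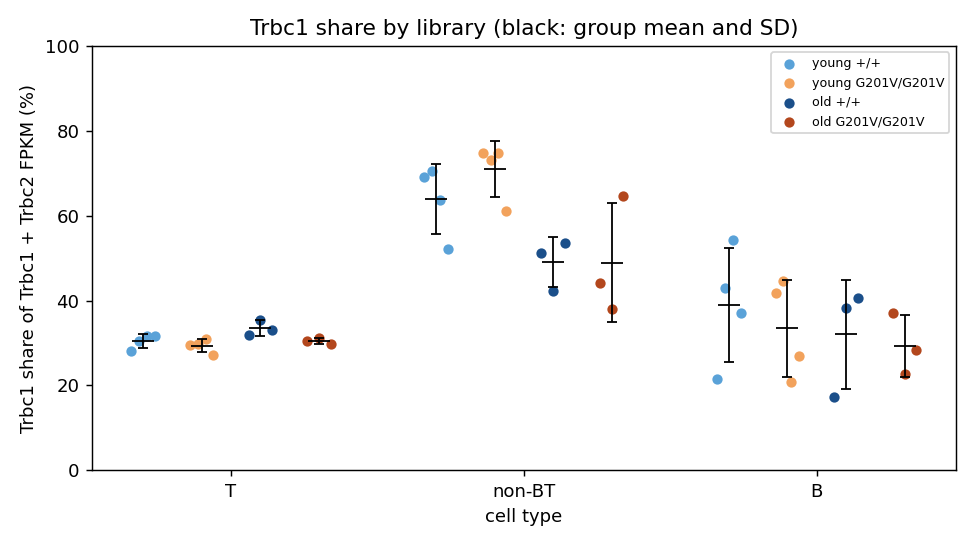
Share of Trbc1 in the sum of Trbc1 and Trbc2 FPKM for each of the 42 libraries, in percent, by cell type and group, with the group mean and SD in black. T libraries form a tight band between 27.2% and 35.5%, and all 14 non-BT libraries lie above it.

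In T cells, no member was called between genotypes in young or old animals or in their mean. In young T cells Trac read 1648, 1570, 1608 and 1475 FPKM in the wild type and 1473, 1411, 1298 and 1647 FPKM in the homozygous libraries. In old T cells it read 1758, 1425 and 1546 FPKM and 1321, 1711 and 1332 FPKM. The genotype groups overlapped at both ages, and the differences were -0.12 ± 0.12 in young and -0.12 ± 0.14 in old animals. Across the 8 genes, the homozygous minus wild-type difference ran from -0.13 ± 0.13 (Cd3g) to 0.23 ± 0.17 (Trdc) in young and from -0.27 ± 0.15 (Trbc1) to 0.05 ± 0.12 (Cd3d) in old T cells. Trbc1 in old T cells was the single case of groups that did not overlap, at 587, 748 and 632 FPKM in homozygous and 800, 778 and 784 FPKM in wild-type libraries, among 4.26% of genes lower in this way. Of 13193 genes tested in T cells, limma called 0% between genotypes in young and 0% in old animals, with 1144 and 502 genes at an unadjusted p under 0.05, and 0.00758% in the mean of both ages. The standard errors of the members are small: those of the mean of both ages lay between 0.08 (Cd3d) and 0.13 (Trdc).

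With age, 1 member was called in T cells, and only in homozygous animals. Trdc, the constant gene of the delta chain of gamma-delta T cells, read 16.3, 15.4, 15.5 and 17.7 FPKM in young and 7.73, 6.10 and 12.1 FPKM in old homozygous T libraries. Its wild-type libraries read 12.7, 12.04, 15.5 and 14.6 FPKM in young and 8.37, 9.63 and 9.73 FPKM in old animals. Old libraries lay below all young ones in both genotypes, where 5.61% of genes (homozygous) and 5.18% (wild type) were lower without overlap. In limma the homozygous difference was -0.88 ± 0.18 (adjusted p = 0.0344), in a comparison that called 1.14% of genes. The wild-type difference of -0.52 ± 0.18 did not pass (adjusted p = 0.323, 0.227% of genes called), and the test of the difference between the genotypes gave -0.36 ± 0.26 (adjusted p = 0.998). The homozygous call held in 8 of 14 fits that each left out 1 library, between -1.13 and -0.68. It was lost without any 1 of the 4 young or the first or second old homozygous libraries, and with the series of library numbers, the runs of consecutive numbers in the labels, as a term (-0.52 ± 0.21). It was also lost without the old animals numbered 2 (-0.68 ± 0.18, adjusted p = 0.160). Age and series are tied in part, since the first series holds old and the last holds young libraries alone. An estimated 399.9 to 1587.5 fragments stood behind the T values of Trdc.

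The gamma constant genes, partners of the delta chain, had 0 of 4 called in old against young homozygous T cells, from -0.49 ± 0.19 for Trgc1 to 0.04 ± 0.25 for Trgc4. Trat1, an adaptor that stabilises the receptor complex, was the 1 gene of the 25 signalling genes that fell, by 0.77 (adjusted p = 0.0344) in homozygous and by 1.16 (adjusted p = 0.0203) in wild-type T cells. Of the 12 natural killer markers, Gzma fell in homozygous T cells (-1.34 ± 0.28, adjusted p = 0.0352) and the other 11 were not called. The summed natural killer markers lay between 1205 and 1504 FPKM in young and between 945 and 1149 FPKM in old homozygous T libraries, while other markers were higher in old T libraries. Of 6 plasma cell markers 4, and of 8 B cell markers tested 3, were called higher with age in homozygous T cells, and 0 of either list in the wild type. The plasma cell markers summed to between 252 and 380 FPKM in young and between 1722 and 4346 FPKM in old homozygous T libraries, and to 742 to 1231 FPKM and 1691 to 6178 FPKM in the wild type. The 10 B cell markers summed to 40.3 to 53.8 FPKM and 85.0 to 199 FPKM in homozygous, and to 55.7 to 70.8 FPKM and 74.0 to 219 FPKM in wild-type libraries. No gene of these lists was at 0 in all libraries of a T group, and their part in the Trdc difference was not tested. The remaining 7 members differed with age in T cells by between -0.28 ± 0.16 (Trbc2, homozygous) and -0.01 ± 0.13 (Trac, homozygous), or nearer to 0 for Trac in the wild type, with none called. Cd247 was also lower without overlap in old wild-type libraries (219 to 238 FPKM, against 240 to 253 FPKM), as were 5.18% of genes. Its difference there was -0.11 ± 0.11 (limma adjusted p = 0.776).

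Non-BT cells gave the widest spread. Cd3e read 3.17, 6.59, 6.09 and 14.02 FPKM in young wild-type and 1.98, 2.94, 3.32 and 7.29 FPKM in young homozygous libraries. In old animals it read 14.8, 32.7 and 23.0 FPKM in wild-type and 22.7, 72.1 and 3.07 FPKM in homozygous libraries. All old wild-type libraries were above the young ones, and the old homozygous libraries ranged from 3.07 FPKM, within the young range, to the highest value of the cell type. Trac had the same form, with 17.4, 23.7, 41.1 and 49.98 FPKM in young wild-type, 9.15, 7.61, 11.2 and 37.3 FPKM in young homozygous, 72.0, 147 and 141 FPKM in old wild-type and 131, 396 and 7.89 FPKM in old homozygous libraries. Trac, Cd3d and Cd3e were higher in old than in young wild-type animals without overlap, as were 4.92% of genes. None of the 3 was called by limma, where 0.199% of genes were called, with 1.88 ± 0.96 for Trac (adjusted p = 0.355), 1.55 ± 0.70 for Cd3d (0.306) and 1.62 ± 0.74 for Cd3e (0.309). With the series of library numbers as a term they were 1.05 ± 1.06, 0.78 ± 0.80 and 0.94 ± 0.83 (adjusted p = 0.910, 0.910 and 0.901). The first series holds old and the last holds young libraries alone, so age and series can be told apart only through the middle one.

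In homozygous non-BT cells the old minus young differences were 2.44 ± 0.96 for Trac, 2.44 ± 0.78 for Cd3g, 2.08 ± 0.70 for Cd3d, 2.08 ± 0.74 for Cd3e and 1.46 ± 0.67 for Trbc2, with none called among the 2.16% of genes that were. The size of these differences turned on single old homozygous libraries, the second being the highest and the third the lowest of the group for all 5 genes. Without the second, the differences were 1.27 ± 0.87 for Trac (adjusted p = 0.666), 1.41 ± 0.67 for Cd3g (0.498), 1.16 ± 0.61 for Cd3d (0.546), 1.12 ± 0.65 for Cd3e (0.606) and 0.49 ± 0.53 for Trbc2 (0.795). Without the third, all 5 genes were called, at 4.01 ± 0.61 for Trac (adjusted p = 0.00215), 3.68 ± 0.52 for Cd3g (0.00144), 3.23 ± 0.45 for Cd3d (0.00133), 3.20 ± 0.55 for Cd3e (0.00429) and 2.54 ± 0.44 for Trbc2 (0.00478). The third was the only old homozygous library in the middle series of library numbers. Without it, age and series cannot be told apart in homozygous non-BT cells. Trbc1 (0.11 ± 0.41) and Cd247 (-0.31 ± 0.33) were not called in any of these 3 fits, but their values moved as well. Without the second library Trbc1 was at -0.55 ± 0.26 (adjusted p = 0.515) and Cd247 at -0.86 ± 0.20 (0.0700), and without the third they were at 0.74 ± 0.29 (0.167) and 0.06 ± 0.31 (0.938). With the series of library numbers as a term, the homozygous differences were 1.62 ± 1.06 for Trac, 1.32 ± 0.80 for Cd3d and 0.71 ± 0.74 for Trbc2, and none was called.

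The values of Trdc ran the other way with age in non-BT cells. It read 4.07, 4.03, 4.67 and 4.58 FPKM in young and 3.69, 1.07 and 2.45 FPKM in old wild-type libraries, and 2.78, 3.73, 3.60 and 3.08 FPKM in young and 1.34, 1.36 and 1.89 FPKM in old homozygous libraries. Old libraries were below all young ones in both genotypes, as were 8.96% (wild type) and 8.54% (homozygous) of genes. The differences of -0.73 ± 0.23 (adjusted p = 0.180) and -0.76 ± 0.23 (adjusted p = 0.118) were not called by limma. Leaving out the second old wild-type library brought the homozygous difference past the threshold (-0.76 ± 0.16, adjusted p = 0.0262), as did array quality weights (-0.79 ± 0.19, adjusted p = 0.0385). The same omission moved the wild-type difference to -0.40 ± 0.19 (adjusted p = 0.627), and leaving out the first old wild-type library moved it to -0.996 ± 0.22 (adjusted p = 0.0590). Natural killer markers moved in the same direction: all 12 were called lower in old than in young homozygous non-BT cells (median -1.84, over all genes -0.02), and 1 of 12, Gzma, in wild-type cells (median -1.69). Their summed level fell from between 1858 and 2842 FPKM in young homozygous libraries to between 447 and 1109 FPKM in old ones, and lay at 2098 to 2706 FPKM and 440 to 1053 FPKM in young and old wild-type libraries. None of the 12 was at 0 in all libraries of a group, and their part in the Trdc difference was not tested.

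Cd247, which natural killer cells also use, showed no such split by age in its FPKM values in non-BT cells. It read 22.2, 29.0, 22.5 and 28.7 FPKM in young wild-type, 18.6, 23.7, 25.1 and 22.1 FPKM in young homozygous, 17.6, 22.2 and 28.2 FPKM in old wild-type and 13.8, 39.1 and 10.2 FPKM in old homozygous libraries. All 4 groups overlapped in FPKM. The log2 ratio of Cd247 to the mean of Cd3d, Cd3e and Cd3g, by contrast, was lower in old animals without overlap. It lay at 0.52 to 1.95 in young and -0.88 to -0.26 in old wild-type libraries. In homozygous libraries it lay at 1.38 to 2.24 and -1.42 to 1.02. The part of natural killer cells in the Cd247 values was not tested. Trbc1 also overlapped between all groups, with 87.4, 99.0, 101 and 96.4 FPKM and 65.3, 82.2, 90.6 and 66.9 FPKM in young wild-type and homozygous libraries, and 74.3, 97.6 and 114 FPKM and 78.2, 205 and 33.7 FPKM in the old ones. Trbc2, by contrast, read 39.1, 41.2, 57.5 and 88.1 FPKM in young wild-type, 22.1, 30.1, 30.6 and 42.4 FPKM in young homozygous, 70.8, 133 and 98.5 FPKM in old wild-type and 99.3, 335 and 18.4 FPKM in old homozygous libraries. The values of the second old homozygous library were the highest of their group for every member but Trdc.

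**Figure D4:**
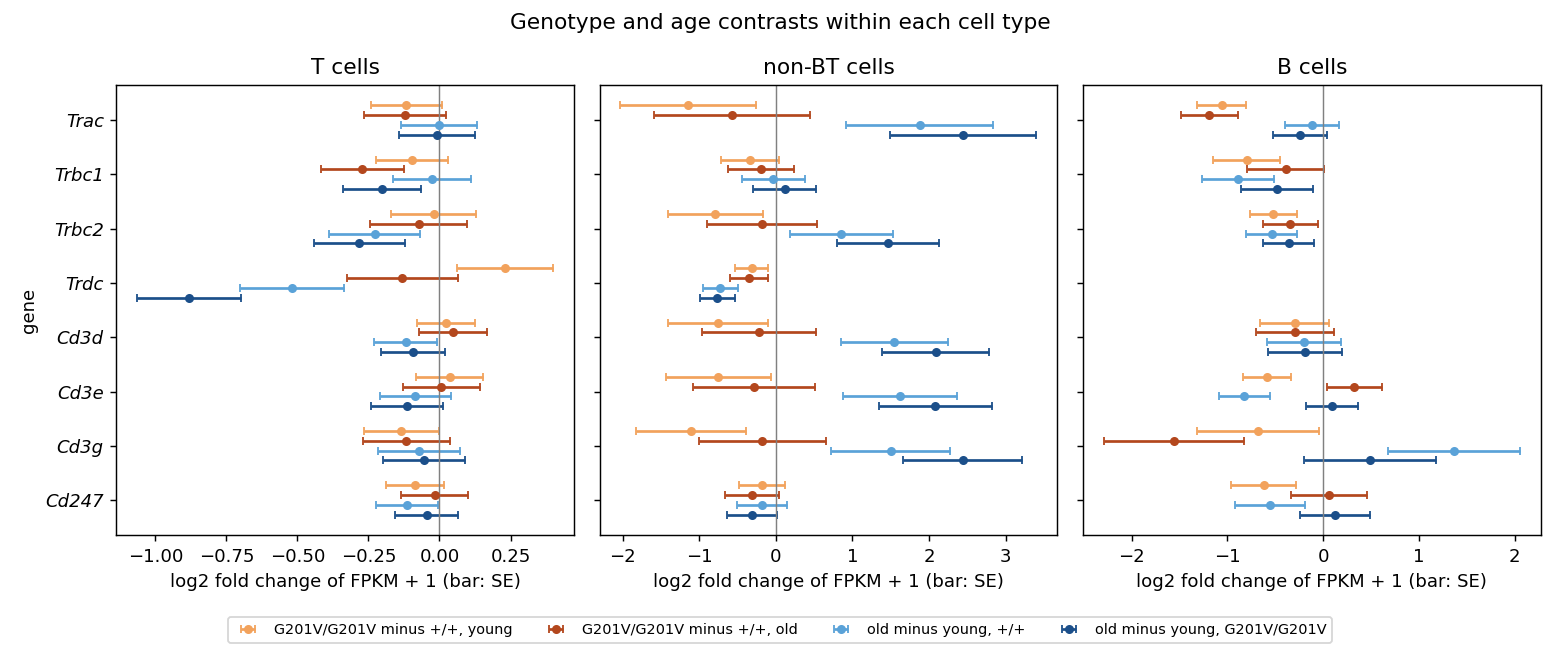
Log2 fold change of FPKM + 1 (point) with its standard error (bar) for each gene, for the genotype difference at each age (orange tones) and the age difference in each genotype (blue tones), in T, non-BT and B cells, with horizontal scales that differ between panels and no point for Trdc in B cells, where it was not tested. T cell differences lie within 0.3 of 0 except those of Trdc with age, and in non-BT cells the age differences of Trac, Trbc2, Cd3d, Cd3e and Cd3g are positive with wide bars while those of Trdc are negative.

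Between genotypes in non-BT cells, all 8 members had a negative difference in young animals and none was called, in a comparison that called 1.69% of 13587 genes. The differences were -1.14 ± 0.88 for Trac, -1.11 ± 0.72 for Cd3g, -0.79 ± 0.62 for Trbc2, -0.76 ± 0.65 for Cd3d, -0.75 ± 0.68 for Cd3e, -0.34 ± 0.38 for Trbc1, -0.32 ± 0.21 for Trdc and -0.18 ± 0.30 for Cd247. The genotype groups overlapped for all but Trdc, among 7.91% of genes lower without overlap. Of the coreceptors, Cd8b1 fell by 3.03 (SE 0.45, adjusted p = 0.00831), and Cd8a and Cd4 were not called. Dntt, the enzyme that adds bases at receptor joints, fell by 1.62 (adjusted p = 0.0253). In the same young non-BT libraries the 6 dendritic cell markers summed to between 406 and 479 FPKM in the wild type and between 214 and 290 FPKM in homozygous animals, and the 6 plasma cell markers to 781 to 1478 FPKM and 435 to 507 FPKM, in neither case with overlap. None of these 12 genes was at 0 in all libraries of a group, and their part in these differences was not tested. Of the 25 signalling genes 24 were tested and 0 were called, with 22 negative (median -0.22, over all genes -0.02) and the largest for Cd6 (-0.97 ± 0.55) and Cd28 (-0.74 ± 0.36). In old non-BT cells the differences ran from -0.57 ± 1.02 (Trac) to -0.17 ± 0.83 (Cd3g), and limma called 0% of genes, with 785 at an unadjusted p under 0.05. Their sign and size depended on 1 library: without the second old homozygous library Trac was at -1.75 ± 0.92 and Cd3g at -1.21 ± 0.71, and without the third they were at 0.99 ± 0.65 and 1.07 ± 0.55, with none of these called. In the mean of both ages no member was called either, where 1.18% of genes were, although Trdc passed when the second old wild-type library was left out (-0.50 ± 0.12, adjusted p = 0.0468). The log2 ratio of Cd247 to the CD3 mean differed between genotypes in non-BT cells by 0.69 in young animals (exact permutation p = 0.0857, adjusted over both ages 0.171) and by -0.08 in old ones (exact permutation p = 1, smallest possible 0.1 with 3 against 3), and neither passed.

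In B cells the low levels of Trac differed between genotypes. Trac read 7.98, 16.0, 11.9 and 8.57 FPKM in young wild-type and 3.35, 3.26, 7.03 and 5.67 FPKM in young homozygous B libraries. In old animals it read 7.11, 10.9 and 12.1 FPKM in wild-type and 4.36, 4.15 and 2.89 FPKM in homozygous libraries. Homozygous libraries lay below all wild-type ones at both ages, as did 5.63% of genes in young and 6.45% in old animals. The mean of both ages was -1.12 ± 0.20 (adjusted p = 0.0317), in a comparison that called 0.693% of 12269 genes. Neither age alone passed, with -1.06 ± 0.26 in young (adjusted p = 0.131, 0.0734% of genes called) and -1.19 ± 0.30 in old animals (adjusted p = 0.302, 0.00815% of genes called). The call was kept in 2 of 14 fits that left out 1 library, those without the first old wild-type or the second old homozygous library, with differences between -1.23 and -1.03 and adjusted p up to 0.0818, and was lost without the filter on low values (adjusted p = 0.0822).

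The other members tested in B cells had negative differences in the mean of both ages and were not called, from -1.12 ± 0.49 for Cd3g and -0.59 ± 0.27 for Trbc1 to -0.13 ± 0.19 for Cd3e. Of the signalling genes, 0 of 23 tested were called (21 negative, median -0.11, over all genes -0.03). Markers of other cells differed as well: the macrophage and monocyte markers summed to between 722 and 986 FPKM in young wild-type and between 315 and 368 FPKM in young homozygous B libraries, and the natural killer markers to between 17.4 and 22.1 FPKM and between 4.87 and 12.7 FPKM. In old B libraries the macrophage and monocyte markers ranged from 428 to 932 FPKM in the wild type and from 192 to 841 FPKM in homozygous animals. No gene of these lists was at 0 in all libraries of a B group. Their part in the Trac difference was not tested.

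Cd3g stood apart in 2 B libraries. It read 6.92, 46.5 and 5.97 FPKM in old wild-type and 1.93, 15.1 and 1.19 FPKM in old homozygous B libraries, so the animals numbered 2 were high in both genotypes. Young libraries read 2.57, 8.96, 3.65 and 3.94 FPKM in the wild type and 2.49, 2.04, 3.30 and 1.72 FPKM in homozygous animals. Cd3e did not show this in the wild type, and read 0.711, 0.791 and 0.615 FPKM in old wild-type and 1.39, 1.58 and 0.583 FPKM in old homozygous B libraries. A fit without the old animals numbered 2 was added after these values had been seen, so its result for Cd3g is description only. In that fit Cd3g passed as lower in homozygous B cells in the mean of both ages (-1.12 ± 0.25, limma adjusted p = 0.0394). With all 14 libraries it was not called (-1.12 ± 0.49, adjusted p = 0.379), unless the animal number was added as a replicate block (-1.12 ± 0.20, adjusted p = 0.0267). Old against young in B cells called 0% of genes in the wild type, with 768 at an unadjusted p under 0.05, and 0.0163% in homozygous animals, with no member among them. Cd3e in wild-type B cells was lower in old than in young libraries (1.27 to 2.80 FPKM) without overlap, as were 4.27% of genes.

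With all libraries, no member was called for a genotype effect that differed between cell types. Between non-BT and T cells the differences ran from -0.74 ± 0.63 (Trac) to -0.08 ± 0.35 (Trbc1), with 0.178% of genes called, and between B and T cells from -1.0 ± 0.63 (Trac) to -0.06 ± 0.18 (Trdc), with 0.0528% called. Trdc was at -0.39 ± 0.18 between non-BT and T cells (limma adjusted p = 0.667). It passed only in the fit without the old animals numbered 2, which was added after the values had been seen (-0.63 ± 0.16, limma adjusted p = 0.0445). The age by genotype interaction likewise called no member in any cell type and 0% of genes in each, with 868, 511 and 723 genes at an unadjusted p under 0.05 in B, T and non-BT cells.

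The genes whose log2 levels were most like the mean of Cd3d, Cd3e, Cd3g and Trac over the 42 libraries were Cd6 (Pearson r = 0.991), Trbv13-2 (0.991), Cd5 (0.988), Trbv3 (0.986) and Trbv16 (0.984). These coefficients describe mostly the contrast between T cells and the others. Over the 14 non-BT libraries alone the nearest genes were Sostdc1 (0.986), Pdcd1, an inhibitory receptor of activated T cells (0.983), Cd6 (0.970), Izumo1r (0.970) and Tox2 (0.969). Within those libraries Trbc2 followed the same mean at r = 0.973, whereas Trbc1 had 0.668, Cd247 0.383 and Trdc -0.567. The libraries share their depth and preparation, so the coefficients are given as description.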

How the data were processed

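The deposited files give FPKM per Ensembl gene for 1 library each, calculated by the authors from mapped reads, per the file headers. HISAT2 2.1.0, Cufflinks 2.2.1 and Cuffdiff on GRCm38.p4 are named in the submitters' processing notes. Full-length cDNA was amplified by PCR (SMART-Seq HT) and made into libraries with Nextera XT, per the labels' protocols. These kits keep no strand information and add no molecular identifiers that the labels mention. FPKM is a share of the library. Gene names and coordinates came from GENCODE M21, and sequences from the GRCm38 transcripts and RefSeq windows.

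A pseudocount of 1 FPKM was added before taking log2, and limma 3.58.1 (R 4.3.3; linear model, contrasts and eBayes with a trend) was fitted to genes reaching 1 FPKM in 3 or more libraries. The 4 groups of a cell type were fitted together (14 libraries), and cell types were compared in 1 fit of 42 libraries. Two-sided p-values were adjusted by Benjamini-Hochberg over the whole fit, with calls under 0.05. Ratios and shares were tested by exact permutation in Python 3.11.15 (scipy 1.17.1). The limma fit was also run on simulated data, for the young genotype contrast in T cells only. The simulated noise was independent between genes and held no shared differences between libraries. It therefore does not bear on the contrasts in non-BT and B cells. Counts were not used; fragments were estimated from the smallest steps of FPKM times length, and no counting intervals were calculated. P-values measure the spread between libraries, since the labels do not say that replicates are separate cultures or animals beyond their numbers.

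The members and lists were chosen with earlier results of these data known. All 8 members are named; of a list, at most the 4 called genes with the largest change are named, or the 2 largest where none was called, and any other gene was named after its values were seen. The comparisons of ratios other than Cd247, those of the Trbc1 share between cell types, and the fits without the old animals numbered 2 were added after seeing the data.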

Additional observations from a re-analysis of the deposited data

Results flagged for a closer look

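Dixon's criterion was applied 60 times, to each member, the Trbc1 share and the Cd247 ratio in each group of 4 libraries. In 4 of these tests a library stood far from the other 3. Chance gives about 1 in 20 for a single test, but the tests share libraries and are not independent. In young homozygous non-BT cells Trac read 37.3 FPKM in library 4, against 7.61 to 11.2 FPKM in the others, and the Trbc1 share of that library was 61.2%. In young homozygous T cells Trbc2 read 2452 FPKM in library 4, against 1571 to 1710 FPKM. In young homozygous B cells Cd3d read 0.890 FPKM in library 1, against 1.74 to 1.86 FPKM.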

How the results depend on the processing

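All counts between cell types (8, 8 and 8 members called) were the same under every alternative run. In B cells, mean of both ages, the 1 member called (Trac) became 0 without the filter on low values and without the library labelled Psmb9, 2 (Trac and Cd3g) with the replicate block and 2 without the old animals numbered 2, and 0 to 1 when each library was left out. In homozygous T cells, old against young, the 1 member called (Trdc) became 0 without the filter, with the series of library numbers as a term, with only the groups compared in the fit and without the old animals numbered 2, and 0 to 1 when each library was left out. In homozygous non-BT cells, old against young, 0 became 1 with array quality weights and 0 to 5 when each library was left out. The mean genotype difference in non-BT cells gave 0 to 1 member called when each library was left out, and its difference from T cells gave 1 without the old animals numbered 2. With a pseudocount of 0.1, ratios that no longer passed were those of Cd247 (0.24), Trac (-0.11) and Trbc2 (-0.11) in B minus T and of Trac in non-BT minus T (-0.21). The last also failed without the libraries labelled Psmb9 (-0.29) and in 8 of 14 settings that left out 1 animal label (range -0.36 to -0.24). No called result changed sign under any alternative. The causes were not tested, except that without the filter more genes are tested and with libraries left out fewer samples are.

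The correlation of same-numbered animals was over 0.1 in every pair in old B cells (0.19, 0.29 and 0.19). It was positive but not over 0.1 in every pair in old T cells (0.0951, 0.213 and 0.134) and old non-BT cells (0.0374, 0.196 and 0.189), and of mixed sign or not over 0.1 in every pair in young cells, so the fits without the block stayed the reported ones. With the replicate block, Trac in B cells was joined by Cd3g (-1.12 ± 0.20, limma adjusted p = 0.0267), and no other call of a member changed. The estimated correlation of libraries with 1 animal label was 0.0771. Depth limits Trdc in B cells, where at most an estimated 10.6 fragments were found.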
